A study of Mus musculus with 4 samples.

Results

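Expression of 8 genes for proteins of the red cell membrane and surface was examined in stem-cell-enriched mouse bone marrow labelled GABPα-deficient and in its controls. The genes were Ank1, Sptb, Slc4a1, Rhag, Rhd, Kel, Ermap and Cldn13, 8 of 19938 genes that could be named on the array. Each was matched by its symbol in the platform annotation to exactly 1 probe set, so 8 of 35556 probe sets were used and all 8 members were measured. They had been brought together because their values differed between these same control and deficient arrays, so their group differences are given as a description, without a test.

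RNA from Flt3-negative LSK cells was hybridised to 4 Affymetrix Mouse Gene 1.0 ST arrays, 2 for controls and 2 for mice labelled deficient. LSK cells lack lineage markers and carry Sca-1 and c-Kit, and those without surface Flt3 are rich in hematopoietic stem cells. Controls were Mx1Cre-GABPa(FL/+), with 1 floxed and 1 wild-type Gabpa allele, and the deficient mice were Mx1Cre-GABPa(FL/-), with 1 floxed and 1 null allele. Both groups carried the Mx1-Cre transgene, whose interferon-inducible promoter is active in many cell types. Both groups were given pIpC, a double-stranded RNA analogue that induces interferon and thereby Cre, and cells were taken 4 days after the last dose. The mice were 6 to 8 weeks old, after 4 generations of backcross to C57/BL6. RNA input was given only as a range, 800 pg to 50 ng, the same for all 4 arrays. The labels do not say whether an array held RNA of 1 animal or of several, so all spreads below are between these samples and may be technical.

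The red cell membrane is a lipid bilayer held to a spectrin network. Ankyrin ties the network to band 3, the anion exchanger, and the Rh complex and blood group proteins sit in or beside that junction. Erythroid precursors switch these genes on in stages as they mature, whereas hematopoietic stem cells are not known for them. The erythroid factor GATA1 binds GATA motifs, KLF1 binds CACCC motifs, and GABP, like other ETS factors, binds motifs with a GGAA core.

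Before the members are described, 2 facts of the whole set of arrays bear on them. Signal for Gabpa itself was 8.43 and 7.28 in controls, against 6.43 and 7.85 in deficient samples, so that the difference was −0.71 (SE 0.68) on the log2 scale, with an adjusted p of 0.605 in limma's fit. The groups overlapped, and without deficient replicate 1 the difference was 0.0021. Whether its probes lie in the deleted stretch is not known here, so the groups are called by their labels. Kit, the receptor of the sorting gate, read 10.21 on both control arrays, against 7.70 and 8.50 on deficient arrays. Ly6a, which encodes Sca-1, was not analysed here, since no probe set named it alone. In limma's fit over all probe sets 0 passed an adjusted p of 0.05, while at an unadjusted p under 0.05 2360 (6.64%) were higher and 1865 (5.25%) lower on the deficient arrays. Cyclic loess turned that split to 1191 and 2349, and subtraction of array medians to 1537 and 2185. The median difference of all genes was 0.16, and −0.00073 after cyclic loess.

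All 8 members were higher on the deficient arrays, with groups that did not overlap. Higher and non-overlapping values were also found for 42.9% of all genes, and since the members were picked on this contrast nothing is read from the count. Their differences ran from 0.91 for Sptb to 3.69 for Cldn13, with a median of 2.86, or 2.70 above the median of all genes. After cyclic loess the median was 2.80. In bulk RNA, more cells of a type and more RNA per cell cannot be told apart.

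**Figure D1:**
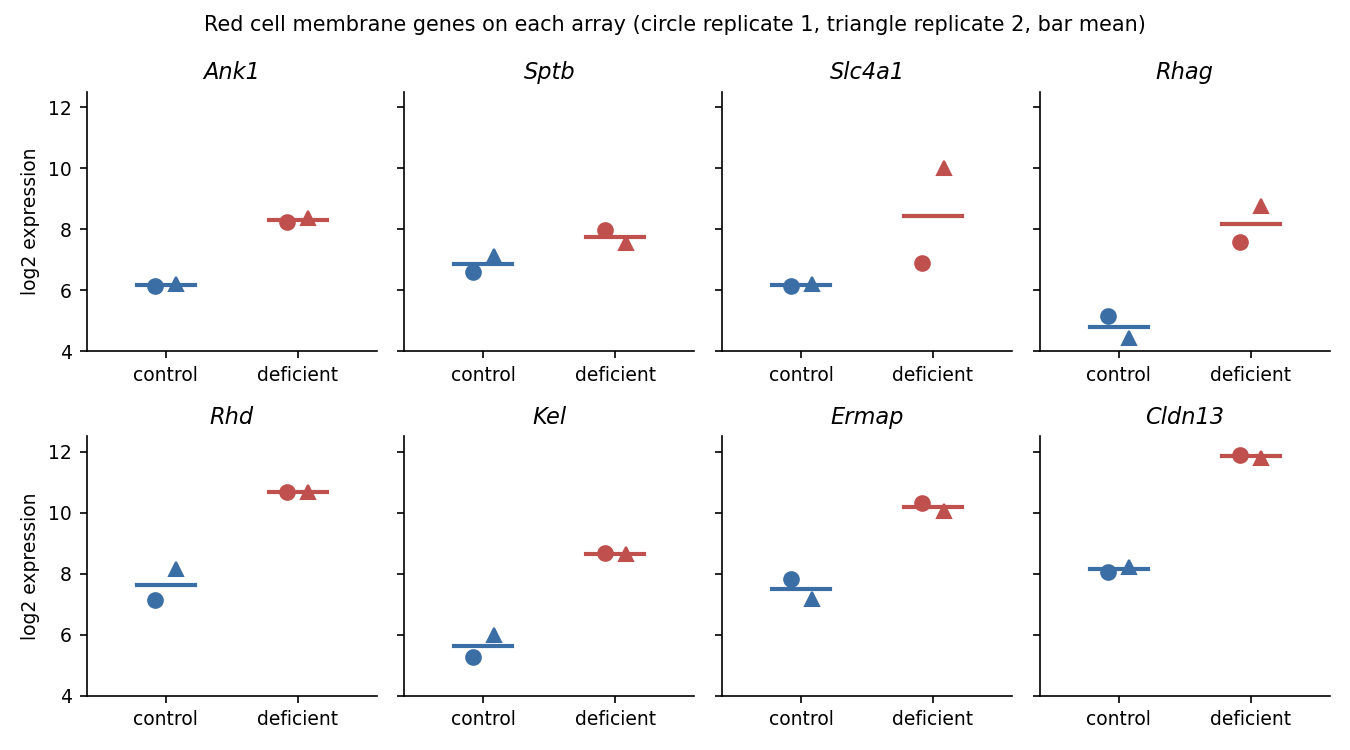
Log2 expression (vertical axis) of the 8 red cell membrane genes on the 4 arrays, in blue for control and red for deficient, with circles for replicate 1, triangles for replicate 2 and bars for the group means. All deficient points lie above the control points of the same gene, and Slc4a1 stands out by the distance between its deficient arrays, at 6.89 and 10.004.

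The first group of members joins the spectrin network to the membrane. Ank1 encodes the ankyrin of red cells, the adaptor between β-spectrin and band 3. It read 6.14 and 6.22 on control arrays, against 8.24 and 8.37 on deficient arrays. The arrays of each group lay close together and the groups far apart, with means of 6.18 ± 0.059 (SD, n = 2) and 8.31 ± 0.092. The difference was 2.13 (SE 0.15), a 4.38-fold higher level on the linear scale, and it stayed between 2.07 and 2.20 with any 1 array left out.

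Sptb encodes erythroid β-spectrin, the subunit of the network that ankyrin and band 4.1 bind. It read 6.59 and 7.11 on control arrays, against 7.99 and 7.54 on deficient arrays. The groups came closest at control replicate 2 and deficient replicate 2. Means were 6.85 ± 0.37 and 7.76 ± 0.31, and the difference of 0.91 (SE 0.28), or 1.88-fold, was the smallest among the members. It was 0.65 without control replicate 1 and 1.17 without control replicate 2, and it ranked 429th of 19938 genes from the highest down. Ank1 ranked 54th on the same scale.

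Slc4a1 encodes band 3, which exchanges chloride for bicarbonate and anchors ankyrin. It read 6.15 and 6.21 on the control arrays, 6.89 on deficient replicate 1 and 10.004 on deficient replicate 2. Deficient replicate 1 lay near the controls, and the high group mean of 8.45 ± 2.20 came from deficient replicate 2. The difference was 2.27 (SE 1.14) over all arrays, 0.71 without deficient replicate 2 and 3.82 without deficient replicate 1. The gap between the deficient arrays, 3.11, was larger than for 99.8% of all genes, while the gap between the control arrays was 0.059.

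The other carriers of this uneven pattern included further red cell genes. Epb42 encodes protein 4.2, which binds band 3 and ankyrin at the same junction. It read 5.199 and 5.33 on the control arrays, 5.19 on deficient replicate 1 and 7.22 on deficient replicate 2, and the difference of 0.94 became −0.079 without deficient replicate 2. Tfrc, the transferrin receptor that brings iron into erythroblasts, read 7.78 and 7.32, then 7.39 and 10.18. Hemgn, a nuclear protein of blood precursors, read 7.85 and 7.84, then 7.42 and 9.62. In all 3 genes only deficient replicate 2 stood above the controls. Other red cell genes had the reverse order. Of 38 other membrane genes measured, 3 were higher on deficient replicate 2 by over 1 and 3 on replicate 1. Of 20 erythroid regulators and enzymes, it was 1 and 1. Cd59a, a surface gene, read 4.51 and 4.98, then 6.91 and 4.81. Such gaps were not limited to red cell genes. Across the array 725 genes (3.64%) were higher on deficient replicate 2 than on replicate 1 by over 1 on the log2 scale, and 896 (4.49%) were lower by as much. The genes closest to Slc4a1 in their values over the 4 arrays, each centred on its mean, were Ifnz, an interferon gene, and Olfr811, an odorant receptor gene, with root mean square distances of 0.14 and 0.21. These were chosen after the values of Slc4a1 were seen.

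The second group forms the Rh complex. Rhag encodes the Rh-associated glycoprotein, an ammonia and carbon dioxide channel without which Rh proteins do not reach the surface. Rhd encodes the Rh protein that carries blood group antigens in human red cells. Their RefSeq promoter windows ran from 250 bases before to 50 after the annotated start (build GRCm38.p6). They are printed with that of Kel because all 3 hold a GATA motif, and with that of Sptb because it holds none. No window was available for Ank1, Slc4a1 and Cldn13, and a relation between motifs and differences was not tested. Capitals mark AGATAA or TGATAA on either strand, so that TTATCT and TTATCA count as well.

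Rhag (chr17:40810899-40811198, plus strand): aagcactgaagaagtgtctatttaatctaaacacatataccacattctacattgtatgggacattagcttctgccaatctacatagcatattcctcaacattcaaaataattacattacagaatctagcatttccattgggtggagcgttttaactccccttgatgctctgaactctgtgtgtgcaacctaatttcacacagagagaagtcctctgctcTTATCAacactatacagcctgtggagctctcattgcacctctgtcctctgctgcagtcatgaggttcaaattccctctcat
Rhd (chr4:134864286-134864585, plus strand): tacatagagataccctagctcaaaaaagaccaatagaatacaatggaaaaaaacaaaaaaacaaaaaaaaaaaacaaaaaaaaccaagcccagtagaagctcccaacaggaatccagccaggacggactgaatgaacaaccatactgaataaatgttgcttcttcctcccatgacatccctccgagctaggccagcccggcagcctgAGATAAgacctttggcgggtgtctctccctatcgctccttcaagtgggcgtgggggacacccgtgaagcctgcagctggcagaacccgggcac
Kel (chr6:41704276-41704575, minus strand): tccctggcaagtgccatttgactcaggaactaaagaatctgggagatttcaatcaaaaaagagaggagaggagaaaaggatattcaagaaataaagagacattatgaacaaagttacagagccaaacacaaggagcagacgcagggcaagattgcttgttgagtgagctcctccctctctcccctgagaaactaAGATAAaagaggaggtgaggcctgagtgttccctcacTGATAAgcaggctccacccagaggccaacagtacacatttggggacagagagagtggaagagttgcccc
Sptb (chr12:76710498-76710797, minus strand): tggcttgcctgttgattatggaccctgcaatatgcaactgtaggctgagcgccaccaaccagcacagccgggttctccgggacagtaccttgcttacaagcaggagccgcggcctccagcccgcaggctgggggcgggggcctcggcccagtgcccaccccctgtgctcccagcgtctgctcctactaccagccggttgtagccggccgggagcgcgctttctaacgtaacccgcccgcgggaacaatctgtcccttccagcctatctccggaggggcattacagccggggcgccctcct

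Of the 8 members, 5 were matched to a promoter window, the 4 printed and that of Ermap. A GATA motif was found in 4 of these 5 windows, against 18.6% of all 32851 windows of the same length. The match began 31 bases before the start in Rhag, 43 in Rhd and 67 in Ermap. Kel had 2 matches, 56 and 19 bases before the start, and 3.26% of all windows had more than 1. For the CACCC motif only the form CCNCNCCC, with N for any base, was searched on both strands. That form occurred in Rhd and Sptb and in 49.5% of all windows, and overlapping matches were counted separately. The plain letters CACCC were not searched. Without a match to that form, the Kel window holds them as printed, and the Rhag and Ermap windows hold them on the other strand. The ETS motif CCGGAAG occurred in 0 of the 5 windows and in 8.86% of all windows. The GGAA core alone was not searched, and all 4 printed windows hold it on at least 1 strand. The GC content was 65.7% in the Sptb window and 40.7% to 48.7% in the other 4, beside a median of 52.7% over all windows. These are matches of letters in a short window, and no binding was measured.

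Rhag read 5.16 and 4.45 on control arrays, against 7.59 and 8.76 on deficient arrays. The groups were widely separated, though deficient replicate 2 exceeded replicate 1 by 1.18. Means were 4.81 ± 0.50 and 8.18 ± 0.83, a difference of 3.37 (SE 0.52), or 10.3-fold. It ran from 2.78 without deficient replicate 2 to 3.96 without deficient replicate 1.

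Rhd read 7.12 and 8.15 on control arrays, against 10.67 and 10.68 on deficient arrays. Here the spread lay between the controls, whose gap of 1.02 exceeded that of 95.8% of all genes, while the deficient arrays differed by 0.014. Means were 7.64 ± 0.72 and 10.67 ± 0.0096, and the difference of 3.04 (SE 0.39) amounted to 8.21-fold. It was 2.53 without control replicate 1 and 3.55 without control replicate 2.

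The third group carries blood group antigens outside the Rh complex. Kel encodes the Kell protein, a zinc endopeptidase of the red cell surface that is linked to the membrane protein XK. It read 5.27 and 5.98 on control arrays, against 8.69 and 8.63 on deficient arrays. As for Rhd, the control arrays differed more, by 0.71, than the deficient ones, by 0.061 in size. Means were 5.63 ± 0.50 and 8.66 ± 0.043, a difference of 3.03 (SE 0.29), or 8.18-fold.

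Ermap encodes an erythroid transmembrane protein of the butyrophilin-like kind, which carries the Scianna antigens in humans. It read 7.82 and 7.16 on control arrays, against 10.30 and 10.06 on deficient arrays. Replicate 1 was the higher array in both groups. The means were 7.49 ± 0.46 and 10.18 ± 0.17, and the difference was 2.69 (SE 0.29), or 6.45-fold.

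Cldn13 encodes a rodent claudin known from erythroid cells, where most claudins seal epithelia. It read 8.06 and 8.22 on control arrays, against 11.89 and 11.79 on deficient arrays. Both groups were tight, with means of 8.14 ± 0.11 and 11.84 ± 0.068. Its difference of 3.69 (SE 0.15), or 12.9-fold, ranked 5th of 19938 genes from the highest down and moved only from 3.61 to 3.78 with any 1 array left out. Rhag ranked 7th, Rhd 13th and Kel 14th, and Ermap and Slc4a1 ranked 22nd and 41st.

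**Figure D2:**
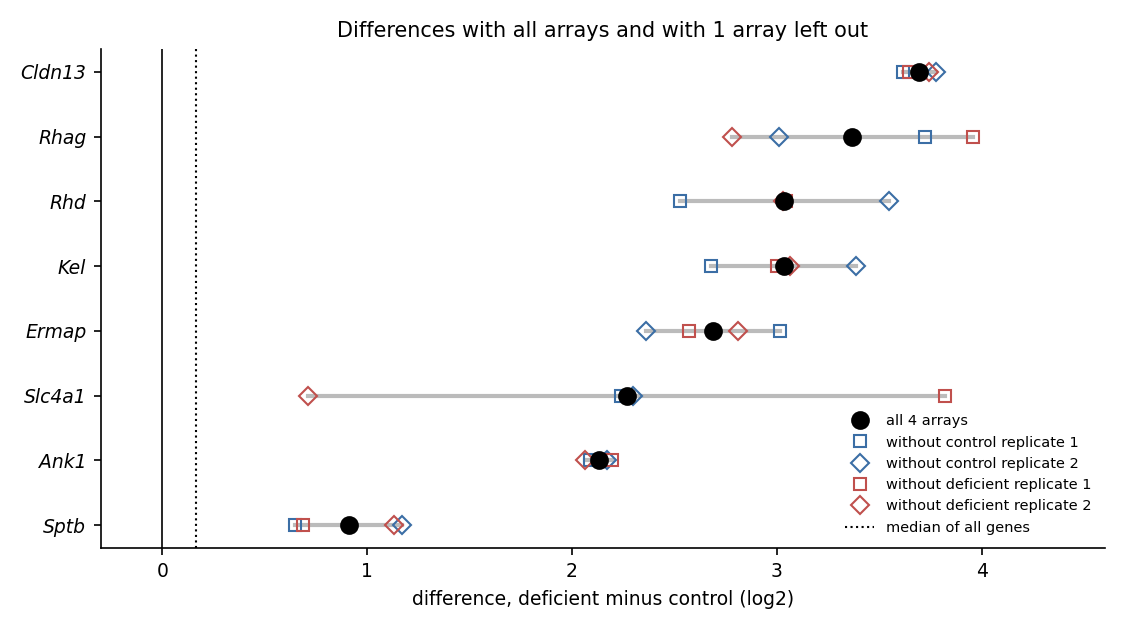
Log2 difference of deficient minus control arrays (horizontal axis) for the 8 genes, with all 4 arrays (black) and with each array left out (open symbols, blue for a control and red for a deficient array, squares for replicate 1 and diamonds for replicate 2), beside the median of all genes at 0.16 (dotted). Cldn13 and Ank1 hardly move, whereas Slc4a1 runs from 0.71 to 3.82 according to which deficient array is kept.

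The gaps between replicates were taken within each group. The choice of members on the group contrast may still have shaped these gaps, so they are given as a description. Between the deficient arrays the members' median gap was 0.19 in size, against 0.22 for all genes, and 2 of 8 members, Slc4a1 and Rhag, differed by over 1, as did 8.13% of all genes. Between the control arrays the members' median gap was 0.59, against 0.20 for all genes. Rhag and Ermap were higher on control replicate 1 and the others on control replicate 2, so the members had no common order of the control arrays.

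Other genes of the red cell membrane differed among themselves in direction and size. Of those listed, 38 had a probe set of their own and were analysed. In limma's fit 0 of the 38 passed an adjusted p of 0.05, the lowest adjusted p being 0.18. At an unadjusted p under 0.05, 11 were higher on the deficient arrays, where 6.99% of all genes were, and 2 were lower, where 6.36% were. Their median difference was 0.45, beside 0.16 for all genes and 2.86 for the members. The members were chosen on this contrast, so their distance from the other membrane genes was not tested. After cyclic loess it was 0.36, with 25 of 38 above 0 in place of 29.

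Of the skeleton genes, 10 were measured, with a median of 0.34. Add2, the β-adducin that caps actin and recruits spectrin, read 6.03 and 6.35 on control arrays, against 8.58 and 8.23 on deficient arrays (difference 2.21, SE 0.22, limma adjusted p = 0.206). Add1, its α partner, differed by 0.71 (SE 0.14), and Dmtn, the actin bundler dematin, by 0.58 (SE 0.22). Add3, the γ-adducin of other tissues, had the opposite sign at −0.85 (SE 0.30). The probe sets of Tpm3, a tropomyosin, disagreed, 3 of them lying between −0.70 and −0.40 and 1 at 0.20. Actb, which encodes β-actin, differed by 0.013.

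Of the surface genes, 28 were measured, with a median of 0.55. Aqp1, the water channel that carries the Colton antigens, read 8.003 and 8.25 on control arrays, against 10.42 and 10.14 on deficient arrays (difference 2.15, SE 0.19, limma adjusted p = 0.18). Aqp9, a glycerol channel of mouse red cells, differed by 1.89 (SE 0.27), Abcb6, a porphyrin transporter with the Langereis antigen, by 1.68 (SE 0.25) and Ackr1, the Duffy chemokine receptor, by 1.65 (SE 0.55). Without deficient replicate 1 Ackr1 stood at 0.92. Tspan33, an erythroid tetraspanin, differed by 1.49 (SE 0.32), Stom, stomatin, by 1.33 (SE 0.22) and Slc29a1, the nucleoside transporter with the Augustine antigen, by 1.10 (SE 0.31), or 0.71 without deficient replicate 1. Bsg, basigin, differed by 0.78 (SE 0.14) and Xk, the partner of Kell, by 0.57 (SE 0.16). Xk read 6.59 and 6.69 on control arrays, against 7.12 and 7.31 on deficient arrays. Its groups did not overlap, as was so in this direction for 42.9% of all genes. After cyclic loess the difference of Xk was 0.48, beside 2.96 for Kel, which was chosen on this contrast.

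The remaining surface genes to be described differed in direction and in how far their arrays agreed. Gypc, the glycophorin that binds band 4.1, differed by 0.011 (SE 0.17), and by −0.033 after cyclic loess and −0.069 after subtraction of array medians. Icam4, an adhesion ligand of the Rh complex, was higher by 0.93 (SE 0.45), with 9.82 on deficient replicate 1 and 8.70 on replicate 2, and by 0.36 without deficient replicate 1. Cd47, a brake on phagocytosis that is held by the Rh complex in human red cells, read 11.63 and 11.62 on control arrays, against 8.52 and 10.14 on deficient arrays. That difference of −2.30 (SE 0.60) was −1.49 without deficient replicate 1, and the gene's dimmer probe set stood at −0.28 (SE 0.15), so the probe sets of Cd47 disagreed in size.

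**Figure D3:**
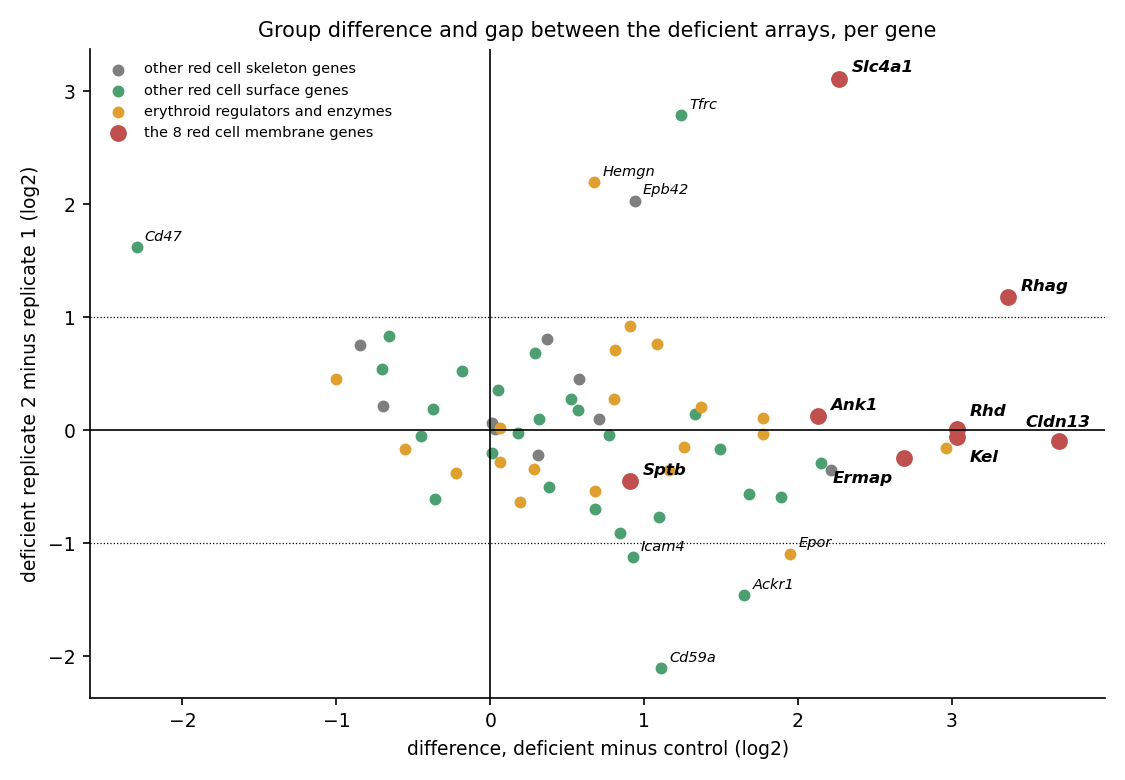
Each point is a gene, placed by its log2 difference of deficient minus control arrays (horizontal axis) and by the log2 difference of deficient replicate 2 minus replicate 1 (vertical axis), in red for the 8 members, grey and green for other skeleton and surface genes, and orange for erythroid regulators and enzymes. Dotted lines mark a gap of 1. Slc4a1, Tfrc, Hemgn and Epb42 lie far above the upper line and Cd59a far below the lower one, while 6 of the members lie between the lines.

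Relatives of the members outside the red cell were compared next, since most members belong to families with forms in other tissues. Of 45 relatives, 43 were measured, and their median difference was 0.25. At an unadjusted p under 0.05, 2 of 43 were higher and 1 lower, where 6.99% and 6.36% of all genes were, and 0 passed an adjusted p of 0.05 in limma's fit. Values above 0 were found for 38 of 43, beside 67.6% of all genes, and after cyclic loess for 26 of 43, beside 49.9% of all genes. No relative reached the value of its family's red cell member, as the values below show, and the difference between members and relatives was not tested because the members were chosen on it.

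Rhbg and Rhcg, ammonia channels of kidney and liver, differed by 0.41 (SE 0.16) and 0.15 (SE 0.17), and by 0.22 and −0.072 after cyclic loess. Ank2 and Ank3, the ankyrins of muscle and nerve, differed by 0.33 (SE 0.17) and 0.089 (SE 0.18), and by 0.12 and −0.10 after cyclic loess. Ank2 was also lower without deficient replicate 2, at 0.19. Slc4a2, the widely expressed anion exchanger, differed by −0.056 (SE 0.21), and the 7 measured transporters of that family other than Slc4a1 ran from −0.056 to 0.37. Sptbn1, the β-spectrin of most nucleated cells, read 9.77 and 9.21 on control arrays, against 7.34 and 8.15 on deficient arrays. It was thus lower where Sptb was higher, with a difference of −1.74 (SE 0.38). Sptbn4, a neuronal β-spectrin, differed by 0.47 (SE 0.15), or 0.25 after cyclic loess. Ece1, an endopeptidase related to Kell, was split between the deficient arrays at 8.54 and 6.29, so its difference of −0.16 (SE 0.83) became 0.97 without deficient replicate 2. The butyrophilin genes Btn1a1 and Btn2a2 differed by 0.26 and 0.23. Among 21 other claudins the median was 0.25, and only Cldn5, the claudin of endothelium, exceeded 1, with 6.05 and 6.06 on control arrays, against 7.86 and 7.57 on deficient arrays (difference 1.66, SE 0.17). Cdh5, another endothelial gene, read 5.51 and 5.25, then 8.27 and 6.23. Pecam1 and Vwf, listed with Cdh5 among stromal and endothelial genes, had the opposite sign, at −0.50 (SE 0.63) and −0.90 (SE 0.15). The groups of Pecam1 overlapped.

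**Figure D4:**
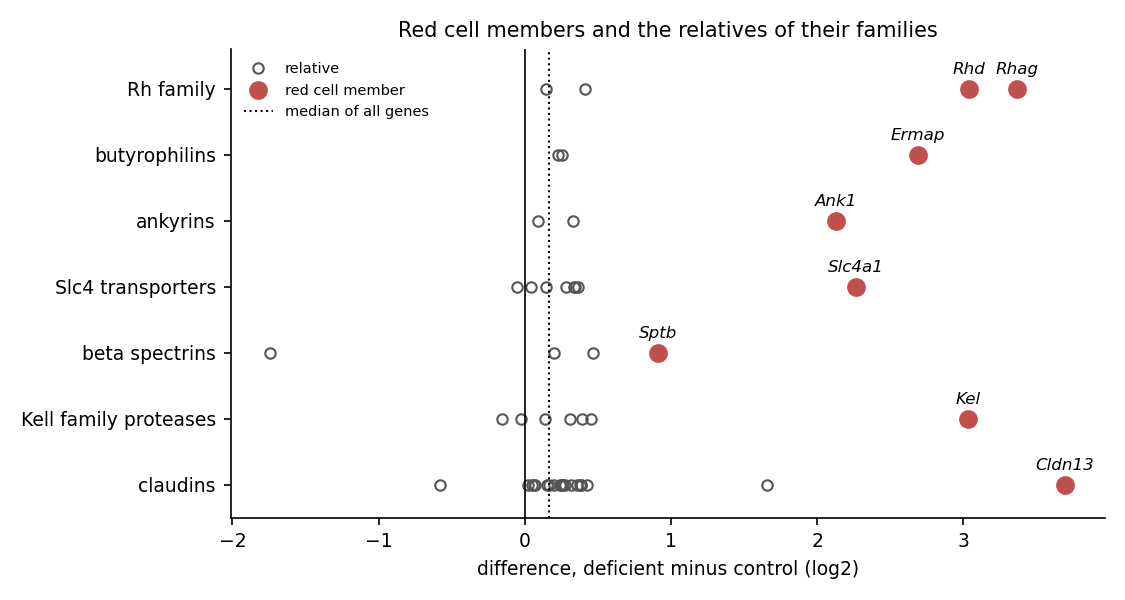
Log2 difference of deficient minus control arrays (horizontal axis) for the 8 red cell members (red) and the measured relatives in their families (open circles), with the median of all genes at 0.16 (dotted). Relatives cluster near the dotted line apart from Sptbn1 at −1.74 and Cldn5 at 1.66, and all 8 members lie to the right of their relatives.

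The genes that lie next to the members on their chromosomes gave a further comparison. Of the 16 nearest protein-coding neighbours in the RefSeq order of GRCm38.p6, 1 on each side of each member, 15 were measured. Their median difference was 0.26, and groups were separate and higher on the deficient arrays for 7 of 15, beside 42.9% of all genes. Svbp, a small partner of tubulin-processing enzymes next to Ermap, was the one neighbour past an unadjusted p of 0.05, with 8.73 and 8.53 on control arrays, against 10.28 and 9.91 on deficient arrays (difference 1.47, SE 0.20, limma adjusted p = 0.276). The others ran from −0.98 for Kat6a, beside Ank1, to 0.49 for Nkx6-3, on the other side of Ank1. Cldn13 at 3.69 thus lay between Tmem270 at 0.31 (SE 0.14) and Mettl27 at −0.27 (SE 0.24).

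Genes whose values followed the members most closely were sought over all other genes. Each gene was centred on its mean over the 4 arrays and compared with the members' mean profile, which was −1.40 and −1.25 in controls, against 1.10 and 1.54 in deficient samples. The closest was Crip2, a LIM domain protein (root mean square distance 0.19, difference 2.78). Ctse, the cathepsin E of red cell precursors and gastric cells, followed (0.20 and 2.53), with Slc11a2, the iron transporter DMT1 that erythroblasts need (0.20 and 2.39), and Atp1b2, a sodium pump subunit (0.20 and 2.74). Tmem120b, the sphingosine kinase gene Sphk1, the biliverdin reductase gene Blvrb and the adipokine gene C1qtnf12 completed the 8, at distances of 0.25 to 0.31. With 4 arrays and a profile that is nearly a step between the groups, this ranking names genes with a similar step and no more.

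Erythroid regulators and enzymes were read on the same arrays. Of 22 listed, 20 were measured, 17 were above 0, beside 67.6% of all genes, and the median was 0.81, beside 0.16. At an unadjusted p under 0.05, 9 of 20 were higher and 2 lower, where 6.99% and 6.36% of all genes were, and 0 passed an adjusted p of 0.05. Klf1, the erythroid factor that binds CACCC motifs, read 7.90 on both control arrays, against 9.68 and 9.65 on deficient arrays. Gata1 read 7.52 and 7.54, then 8.87 and 8.52, a difference of 1.16 (SE 0.19). Blvrb differed by 2.96 (SE 0.16), Trim10, an erythroid ubiquitin ligase gene, by 1.77 (SE 0.16), and Car1, carbonic anhydrase 1, by 1.26 (SE 0.15). Alas2, the erythroid enzyme that begins heme synthesis, read 5.35 and 5.30 on control arrays, against 6.03 and 6.80 on deficient arrays, a difference of 1.09 (SE 0.31), or 0.70 without deficient replicate 2. Nfe2 and Lmo2, which stem cells and megakaryocytes also use, differed by −1.005 (SE 0.24) and −0.56 (SE 0.15).

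Markers of other cell types also differed between these arrays, and their part in the members' values was not tested. Of 18 macrophage genes, all 18 were above 0, beside 67.6% of all genes, and 17 after cyclic loess, beside 49.9%. At an unadjusted p under 0.05, 9 of them were higher, where 6.99% of all genes were, and the list's mean level was 5.97 and 6.07 on control arrays, against 7.34 and 6.76 on deficient arrays. Vcam1 and Cd5l, markers of resident macrophages, differed by 2.10 (SE 0.32) and 2.09 (SE 0.34), Spic, the factor of iron-recycling macrophages, by 1.47 (SE 0.21) and Mrc1, the mannose receptor gene, by 1.61 (SE 0.30). The macrophage mean was highest on deficient replicate 1, whereas the members' mean, 6.54 and 6.69 on control arrays, against 9.03 and 9.48 on deficient arrays, was highest on deficient replicate 2. That order of the members' mean rested on Slc4a1 and Rhag. Without both, the other 6 averaged 9.63 on deficient replicate 1 and 9.51 on replicate 2, and 4 of the 8 members, Sptb, Kel, Ermap and Cldn13, were higher on replicate 1. Of 12 stromal and endothelial genes, 9 were above 0, 5 of them at an unadjusted p under 0.05, with 1 lower at that p, and with means of 6.17 and 6.34 against 7.02 and 6.87. Sparc, a matrix glycoprotein, differed by 3.80 (SE 0.24), Kdr, an endothelial receptor, by 0.82 (SE 0.16), Cxcl12, a niche chemokine, by 1.46 (SE 0.33), and Vwf by −0.90 (SE 0.15).

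Stem cell and megakaryocyte genes lay on the other side. Of 13 measured stem cell genes 11 were below 0, beside 32.4% of all genes. At an unadjusted p under 0.05, 7 of them were lower, where 6.36% of all genes were, and the list's mean was 7.92 and 7.81 on control arrays, against 6.51 and 6.61 on deficient arrays. Cd34 differed by −3.54 (SE 0.22), Meis1 by −3.01 (SE 0.39) and Kit, whose protein the gate selects for, by −2.11 (SE 0.32). Flt3, a receptor of multipotent progenitors that the list also held, read 8.43 and 9.27 on control arrays, against 5.68 and 5.95 on deficient arrays (difference −3.03, SE 0.35), although the cells of both groups were sorted as negative for its surface protein. All 7 measured megakaryocyte genes were below 0, with means of 8.13 and 8.38 against 7.12 and 6.80. Itga2b, which encodes CD41, stood at −1.79 (SE 0.20), and Pf4, a platelet chemokine, at −2.82 (SE 0.78), or −1.76 without deficient replicate 2.

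**Figure D5:**
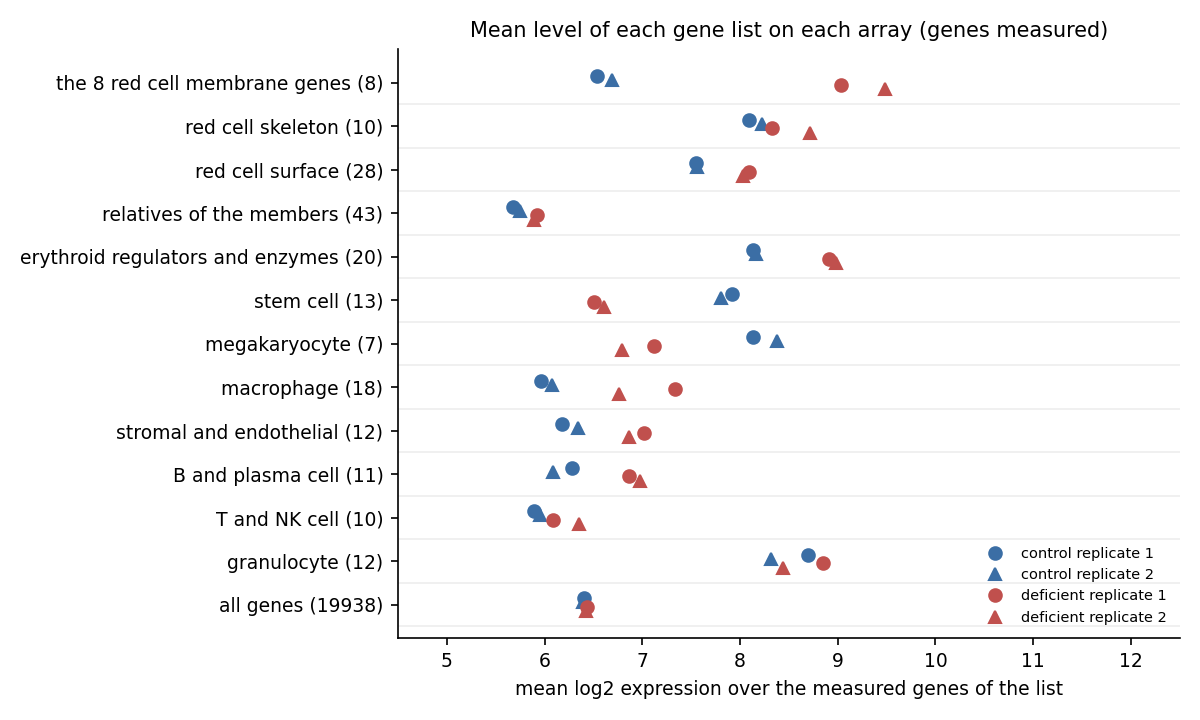
Mean log2 expression over the measured genes of each list (horizontal axis) on each array, in blue for control and red for deficient, with circles for replicate 1 and triangles for replicate 2 and the number of genes in brackets. The 8 members lie at 6.54 and 6.69 in controls and at 9.03 and 9.48 in deficient samples, the stem cell list lies lower in deficient samples, and the mean of all genes stays near 6.4 on every array.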

How the data were processed

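The deposited values were log2 expression values, 1 for each of 35556 probe sets on 4 arrays. They were made by the authors with RMA in Partek per the submitters' processing notes. RMA usually corrects background and quantile-normalizes arrays. The medians of the deposited values still differed, at 5.87 and 5.91 on control arrays, against 5.93 and 6.01 on deficient arrays. The genome build was not stated in the sources used here. All 4 value columns were matched to samples and 0 were left over. No detection calls were used, and precision is limited by the number of arrays. Names came from the platform annotation, with symbols updated by Entrez number through RefSeq's GRCm38.p6 table, which held 21698 of 21789 single-gene probe sets. A further 1621 had several symbols and 12146 none. Among several probe sets of a gene, that of highest mean level was used.

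Groups were compared with limma 3.58.1 in R 4.3.3 (lmFit and eBayes, genotype only, Benjamini-Hochberg over all probe sets, adjusted p under 0.05). SE is that of the moderated fit. In 10 simulations with 200 changed probe sets among 35556, 0% of those changed by a log2 of 1 and 29.6% of those changed by 3 passed the adjusted threshold, and 80.2% and 97% an unadjusted p under 0.05. The spreads were shuffled among probe sets, and the share changed on the real arrays is not known. These figures therefore hold for the simulated setting only.

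Members, gene lists and tests were chosen with earlier results of these data known. Named were all members, wider membrane genes at an unadjusted p under 0.05 or set by name, the closest relatives, up to 4 genes of each cell type list by smallest p, and the 8 genes most like the members. Add3, Dmtn, Actb, Tfrc, Hemgn, Cd59a, Cdh5, Pecam1, Nfe2, Lmo2, Btn1a1, Btn2a2, Ifnz, Olfr811 and the single neighbours were chosen after their values were seen. Alternatives were cyclic loess, array medians, no dim probe sets, a replicate block, trend and robust variance, means over probe sets, and each array left out. Plots used Python 3.11.15 with matplotlib 3.10.9.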

Additional observations from a re-analysis of the deposited data

How the results depend on the processing

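Over 10 alternatives all 8 members kept a positive difference (80 values, 0 of the opposite sign), but most of these outcomes were fixed in advance. Each member had 1 probe set, which was in the brighter 50%. Dropping dim probe sets, the replicate block, trend and robust variance, and means over probe sets therefore left each member's difference unchanged. With groups that did not overlap, leaving 1 array out could not reverse a sign. Only cyclic loess and subtraction of array medians could have done so. The members' median difference, 2.86, was 2.80 after cyclic loess and 2.78 after subtraction of array medians, and with 1 array left out it ran from 2.60 to 3.02. No alternative brought a probe set past the adjusted threshold. The count of probe sets higher at an unadjusted p under 0.05, 2360, was 1191 after cyclic loess, 1537 after subtraction of array medians, 964 without the dimmer 50% of probe sets and 1341 with the replicate block, and ran from 714 to 2198 with 1 array left out. Whether the replicate numbers pair the arrays is not known. The replicate deviations of the control and deficient groups had a correlation of −0.088 over all probe sets, which cannot settle it. In this balanced design the block leaves every difference as it is. The 2 other membrane genes lower at that p became 4 after subtraction of array medians and 0 when a gene's probe sets were averaged, and ran from 1 to 3 with 1 array left out. The 2 relatives higher became 1 after cyclic loess, 1 after subtraction of array medians, 1 without dim probe sets and 1 with the block, and ran from 1 to 2 with 1 array left out, and the 1 lower ran from 0 to 2. Of 77 named genes, 7 changed sign under some alternative. With 1 deficient array left out, replicate 1 and then replicate 2, Epb42 stood at 1.95 and −0.079, Gypc at −0.089 and 0.11, Ank3 at 0.22 and −0.046, Slc4a2 at −0.22 and 0.10, Ece1 at −1.28 and 0.97, and Gabpa at 0.0021 and −1.42. Without control replicate 1 Gypc stood at −0.082 and Ank3 at −0.019, and without control replicate 2 Slc4a2 stood at 0.096. After cyclic loess Gypc stood at −0.033, Rhcg at −0.072 and Ank3 at −0.10, and after subtraction of array medians Gypc stood at −0.069. The cause was not tested. With 2 arrays a group, no further array can show which of the deficient values of Slc4a1 is typical.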

Other observations

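Genes of lymphoid cells and granulocytes were read on the same arrays, where 67.6% of all genes were above 0 (49.9% after cyclic loess). Of 11 measured B and plasma cell genes all 11 were above 0 (10 after cyclic loess), with a median difference of 0.60 and list means of 6.28 and 6.09 in controls, against 6.87 and 6.98 in deficient samples. Mzb1 and Sdc1, genes of plasma cells, differed by 1.59 (SE 0.23) and 1.43 (SE 0.15). Of 10 T and NK cell genes 8 were above 0, with a median of 0.33, and the list ran from −1.98 (SE 0.74) for Nkg7, a cytotoxic granule gene, to 1.73 (SE 0.20) for Gzmb, a granzyme gene. Nkg7 read 10.53 and 10.33 in controls, against 9.45 and 7.44 in deficient samples, and stood at −0.98 without deficient replicate 2. Of 12 granulocyte genes 7 were above 0, with a median of 0.26, and the list divided. Mpo, the myeloperoxidase gene of early granulocytes, differed by −0.86 (SE 0.20), whereas S100a8, S100a9 and Ltf, genes of later granulocytes, differed by 0.78 (SE 0.36), 1.003 (SE 0.48) and 0.81 (SE 0.34). Without control replicate 2, S100a8 stood at 0.41 and S100a9 at 0.39, and without deficient replicate 2 Ltf stood at 0.44. In limma's fit 0 of these genes passed an adjusted p of 0.05.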
